A study of Mus musculus with 2 samples.

Results

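The cells described here are γ cells, the islet endocrine cells that make pancreatic polypeptide, taken by hormone content from single-cell RNA-Seq of mouse islets. A barcode was counted as a γ cell when it had at least 500 detected genes and at most 10% of its UMIs (unique molecular identifiers, each marking 1 captured transcript) from mitochondrial genes, when Ppy made up at least 10% of its UMIs, when Ins1 plus Ins2, Gcg and Sst were each under 5%, and when Ghrl was under 1%. This rule left 584 γ cells of 7100 kept barcodes in the WT library and 575 of 6346 in the ghrelin-knockout (GKO) library, 1159 of 13446 in all. Both libraries came from islets of 8-week-old male C57BL/6N mice on standard chow, WT or with germline deletion of the preproghrelin gene, and 4 littermates of a genotype were pooled before islets were handpicked, dispersed and sorted for live single cells. With 1 library for each genotype there was no replicate, so no difference between WT and GKO was tested, and each interval given below is a 95% interval for counting error only. PCR and the sharing of a library by all cells of a genotype are not in these intervals.

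γ cells lie at the rim of the islet and are most frequent in the part of the pancreas that develops from the ventral bud. Pancreatic polypeptide is released after meals under vagal control and lowers exocrine secretion and food intake through the Y4 receptor. Its relatives peptide YY and neuropeptide Y share its hairpin-like fold, and Ppy and Pyy are neighbours in the genome. Ghrelin is an octanoylated peptide made mainly in the stomach and, during development, by ε cells of the islet, and its receptor in the islet is known chiefly from δ cells.

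The γ cells were 8.23% (exact Clopper-Pearson interval 7.60 to 8.89) of kept barcodes in WT and 9.06% (8.37 to 9.79) in GKO. They held 13955558 UMIs in WT and 12899458 in GKO, which were 9.00% and 12.9% of the UMIs of kept barcodes. Both kinds of share depend on the other cells kept. β cells, cut by insulin share as described below, numbered 2027 in WT and 768 in GKO, beside 584 and 575 γ cells. Why the shares differed was not tested. The median γ cell had 21619.5 UMIs and 3464.5 genes in WT and 21007 UMIs and 3444 genes in GKO, with 2.30% and 2.59% mitochondrial UMIs, so depth was nearly the same on both sides. Barcodes with at least 10% Ppy numbered 811 in WT and 709 in GKO, and 227 and 134 of them were set aside because another hormone was over its limit. Gcg was over the limit in 122 and 72 of these, Sst in 59 and 48, insulin in 48 and 16, and Ghrl in 0 and 0. No doublet caller was run, and 9 WT and 3 GKO γ cells had more than 3 times the median UMIs of their library. The libraries shared 18 barcode sequences, and 3 γ cells carried one of them.

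The limit at 10% lay where few barcodes met the limits on the other hormones. The γ cells closest to it had 10.4% Ppy in WT and 10.2% in GKO, and the closest barcodes below it had 10.0% (just under the limit) and 9.57%. Only 5 WT and 8 GKO γ cells lay between 10 and 12%, and 12 and 6 barcodes that passed the other limits lay between 8 and 10%. The median share of Ppy among γ cells was 37.1% in WT and 36.0% in GKO, with 5th and 95th percentiles of 17.6 and 50.5% in WT and 18.9 and 48.6% in GKO. These shares chose the cells and are given as a description.

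**Figure D1:**
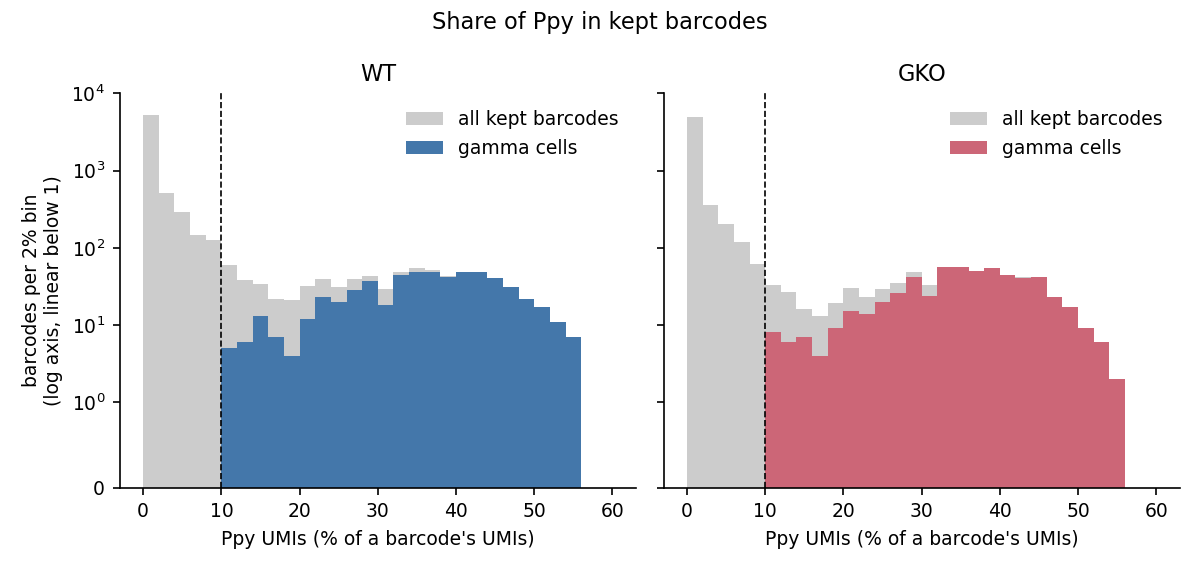
Histogram of the share of UMIs from Ppy (x axis, percent) in all kept barcodes (grey) and in γ cells (coloured) of the WT and GKO libraries, with the number of barcodes per bin on a log y axis and a dashed line at the limit of 10%. Most γ cells sit around the medians of 37.1% and 36.0%, and few of them lie just above the limit, where grey bars show barcodes set aside for another hormone.

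Ghrl checked the genotype labels. In WT γ cells it had 63 UMIs, 4.51 CPM (counts for each 1000000 UMIs of the summed cells), and in GKO γ cells 1 UMI, 0.08 CPM, a log2 ratio of -5.86 (counting interval -11.19 to -3.33). The WT level was that of endothelial barcodes of the same library, 4.60 CPM from 24 UMIs (barcodes low in hormones with at least 10 UMIs of endothelial markers), a cell type that does not make ghrelin. A Ghrl UMI was found in 9.93% of WT γ cells and 4.08% of WT endothelial barcodes, whose median depths were 21619.5 and 7190.5 UMIs. With every cell thinned to 5000 UMIs the shares were 3.26 and 2.70%, and the WT level is not read here as expression. Ghsr, the ghrelin receptor, had 4 UMIs in WT γ cells (0.29 CPM) and 11 in GKO γ cells (0.85 CPM), whereas δ cells had 26.7 and 31.3 CPM. Endothelial barcodes had 3 and 0 Ghsr UMIs. Of the 11 Ghsr UMIs in GKO, 10 were in the γ cells with at least 1% Sst described below.

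The hormone genes Ppy and Pyy stand at the head of the γ cell transcriptome, so their loci are shown first. Both are on the minus strand of chromosome 11 (GRCm38), Ppy from 102099931 to 102101319 and Pyy from 102106676 to 102107832, with 5356 bases between them. The 120 bases before each RefSeq transcription start are chr11:102101320-102101439 for Ppy and chr11:102107833-102107952 for Pyy, printed 5′ to 3′ on the minus strand with the letters TATAA in capitals.
Ppy: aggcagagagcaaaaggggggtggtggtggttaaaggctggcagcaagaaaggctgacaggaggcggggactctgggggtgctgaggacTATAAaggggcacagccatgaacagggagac
Pyy: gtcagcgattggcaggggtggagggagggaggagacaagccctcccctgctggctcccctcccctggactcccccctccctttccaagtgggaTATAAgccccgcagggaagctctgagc
TATAA begins 31 bases before the start of Ppy and 27 bases before that of Pyy. On either strand of 250 bases before the start, the same letters occurred in 22.8% of 32851 RefSeq mouse promoters, so the match is a description of these promoters and not of γ cells.

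Ppy reached 365627 CPM in the summed WT γ cells and 356948 CPM in GKO. Pyy, the gut and islet hormone peptide YY, was next at 126643 and 123788 CPM. Its level was above that of δ cells, 53318 and 50039 CPM, and well above that of α cells, 14897 and 13958 CPM, while β cells had 2203 and 1494 CPM. Npy had 1 UMI in WT γ cells and 11 in GKO. Of 7 genes on the list of the NPY family and its receptors, 4 had a UMI and 2, Ppy and Pyy, passed the filter on low values used for ratios (at least 50 CPM in 1 genotype, 20 UMIs in each and 200 in both).

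Within single γ cells the Pyy share had a median of 10.6% in WT and 10.9% in GKO, and it ran from 1.08 to 38.9% and from 0.626 to 38.2%. Pyy exceeded Ppy in 29 WT and 24 GKO γ cells. The Ppy and Pyy shares had a Pearson correlation of -0.30 over the 584 WT cells and of -0.21 over the 575 GKO cells. The shares of a cell sum to a fixed total, and all cells of a genotype come from 1 library, so these are descriptions. Cells with Pyy and under 10% Ppy could not be among the γ cells by the rule.

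**Figure D2:**
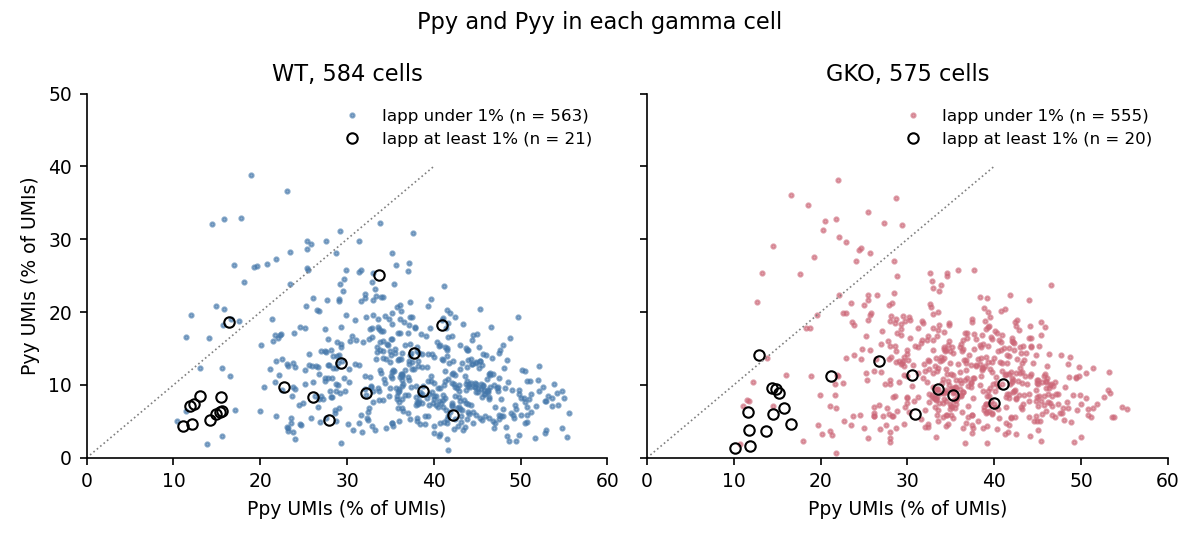
Share of UMIs from Ppy (x axis, percent) against share from Pyy (y axis, percent) in each γ cell of WT and GKO, with cells of at least 1% Iapp marked. Of the marked cells, 11 of 21 in WT and 12 of 20 in GKO have under 20% Ppy and the others spread over the axis, and the 29 and 24 cells above the dotted line have more Pyy than Ppy.

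Other islet hormones were low in the γ cells, as the rule required for Ins1, Ins2, Gcg, Sst and Ghrl. Ins1 was at 1285 CPM in WT and 951 in GKO and Ins2 at 3385 and 2778, beside 1512 and 1242 CPM of Ins1 and 4037 and 3439 CPM of Ins2 in endothelial barcodes, which do not make insulin. Counted per barcode, insulin UMIs averaged 112 and 83.7 in γ cells and 49.2 and 39.9 in endothelial barcodes, whose median depth was 7190.5 and 7452 UMIs. Gcg was at 3266 and 2794 CPM and Sst at 1978 and 2160 CPM, and both were unevenly spread. The median γ cell had 0.0455 and 0.0617% Gcg, and 49 WT and 47 GKO cells had at least 1%. For Sst the medians were 0.0281 and 0.0199%, and 21 and 23 cells had at least 1%. Iapp, the amyloid peptide of β and δ cells, was not used by the rule and was as uneven, with medians of 0.0474 and 0.0327% and at least 1% in 21 and 20 cells.

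The 3 small sets of γ cells with a second peptide differed in other genes as well. Cells with at least 1% Iapp had a median Ppy share of 16.4% in WT and 15.5% in GKO, against 37.2 and 36.3% in the rest, although 10 of 21 and 8 of 20 had at least 20%. The sets overlapped, with 4 and 4 cells in both the Iapp and Sst sets, 5 and 1 in both the Gcg and Sst sets and 0 and 0 in both the Iapp and Gcg sets. In the cells with at least 1% Iapp, Nkx6-1, a β cell transcription factor, was at 78.8 and 106 CPM against 39.7 and 44.7 in the rest. Their median insulin share was 0.436% in WT and 0.429% in GKO, against 0.442 and 0.356% in the rest. Hhex, a δ cell transcription factor, had 12 and 6 UMIs in them, 25.6 and 17.7 CPM against 2.60 and 6.61 in the rest, and their median Sst share of 0.0284 and 0.0194% was near that of the other γ cells.

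Cells with at least 1% Gcg had a median Ppy share of 26.7% in WT and 29.6% in GKO, against 37.9 and 36.7% in the rest. Ttr, transthyretin, which α cells express strongly, was at 6561 and 4097 CPM in them against 2287 and 2438 in the rest, and Irx2, an α cell transcription factor, at 42.6 and 44.8 CPM against 11.03 and 13.2. Cells with at least 1% Sst were larger libraries, with medians of 33528 and 31006 UMIs against 21317 and 20559.5, and 5018 and 4873 genes against 3450.0 and 3407.5. Hhex was at 43.7 and 68.7 CPM in them against 0.69 and 2.89 in the rest. Whether such barcodes hold 1 cell or a pair was not tested.

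The remaining marker genes named for γ cells, Tspan8 and Folr1, were not used by the rule and served to check the label. Tspan8 (chromosome 10, 115816817 to 115849893) encodes a tetraspanin and was at 635 CPM in WT and 763 in GKO, against 468 and 533 in δ cells, 47.0 and 40.6 in α cells and 40.1 and 37.9 in β cells. It was found in 99.3% of WT γ cells (98.3 to 99.8) and 99.7% of GKO γ cells (98.7 to 99.96), and in 11.1 and 9.54% of endothelial barcodes. Folr1 (chromosome 7, 101858331 to 101870788), a folate receptor, was at 398 and 352 CPM, against 239 and 217 in δ cells and 49.2 and 50.4 in α cells. It was found in 96.4% (94.6 to 97.8) and 96.2% (94.3 to 97.6) of γ cells and in 1.70 and 0.651% of endothelial barcodes. At a common depth of 5000 UMIs per cell (1 WT and 2 GKO γ cells were shallower), Tspan8 was still found in 91.9 and 94.9% of γ cells and Folr1 in 78.4 and 74.7%, against 7.87 and 7.06% and 0.674 and 0.294% of endothelial barcodes. In δ cells Tspan8 was found in 95.2 and 96.0% and Folr1 in 81.3 and 75.2%. At the common depth these were 84.9 and 87.5% and 59.8 and 56.9%. Detection thus set γ cells apart from δ cells far less than from endothelial barcodes. By level, both genes were highest in γ cells and present in δ cells at a lower level, and neither went against the label.

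Irx2, Nkx6-1 and Hhex, transcription factors of α, β and δ cells, were each lower in γ cells than in the class they are known from. The other endocrine classes were cut by hormone share with the same limits (α cells by at least 10% Gcg, δ cells by at least 10% Sst, β cells by at least 25% insulin). Since the hormone shares that define the classes come from the same counts, the comparison between classes is a description. Irx2 was at 13.9 CPM in WT and 15.7 in GKO γ cells, against 95.6 and 110.5 in α cells. Nkx6-1, known from β cells, was at 41.0 and 46.4 CPM, below the 111 and 129 of β cells and above the 13.9 and 14.7 of α cells. Hhex was at 3.37 and 6.90 CPM against 212 and 229 in δ cells, and Mafa had 0 UMIs in WT γ cells and 1 in GKO.

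Of 15 granin and granule genes past the filter, 1 was above and 3 were below α, β and δ cells in both libraries, beside 7.97% above and 7.25% below over all genes past the filter. Ttr was at 2675 CPM in WT and 2572 in GKO γ cells. Chga, the granule protein chromogranin A, was at 2146 and 2079 CPM, lower than in α, β and δ cells. Pcsk2, the prohormone convertase that processes glucagon and pancreatic polypeptide precursors, was at 1873 and 1755 CPM, against 4756 and 4237 in α, 1494 and 1468 in β and 2512 and 2289 in δ cells. Pcsk1, the convertase of β cells, was at 24.9 and 26.8 CPM, against 2.19 and 1.63 in α, 179 and 196 in β and 54.6 and 41.4 in δ cells. Slc30a8, the zinc transporter of insulin and glucagon granules, was at 52.6 and 40.0 CPM in γ cells, 723 and 767 in α, 408 and 412 in β and 11.9 and 18.2 in δ cells.

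Receptors were sparse. Of 32 receptor genes on the list, 28 had a UMI in γ cells and 0 passed the filter. The highest was Sstr3, a somatostatin receptor, at 39.8 CPM in WT and 37.7 in GKO, found in 56.2% (52.0 to 60.2) and 52.9% (48.7 to 57.0) of γ cells and in 0.680% of WT and 0 of 461 GKO endothelial barcodes, a count that allows up to 0.797% of such barcodes with a UMI at their depth. The fatty acid receptor Ffar4 was at 27.4 and 32.7 CPM and Ffar1 at 12.9 and 15.4. The incretin receptor Gipr was at 18.4 and 19.2 CPM and Gpr119, a lipid receptor, at 15.0 and 18.2. Glp1r had 2 and 2 UMIs and Gcgr 2 and 3, at or under the limit of 3 counts used here as the floor. The muscarinic receptor Chrm3 was at 6.88 and 6.74 CPM.

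The genes that set γ cells above all 3 other endocrine classes in both libraries were led by heat shock chaperones and immediate early genes. Of 1668 genes past the filter, 133 (7.97%) were higher in γ cells than in α, β and δ cells in both WT and GKO, and 121 (7.25%) were lower than in all of them. Of 20 heat shock chaperone genes, 18 passed the filter and 15 were among the higher genes. Of 31 immediate early genes, which are transcribed within minutes of a stimulus, 15 passed and 15 were higher. The filter used γ cell counts alone, so a gene could pass it through a high level in γ cells only. Counts of genes above or below the other classes are therefore a description and not a test. The γ cells spend a different share of their UMIs on hormones than the other classes, with medians of 50.7% in WT and 49.4% in GKO against 29.0 and 29.4% in α, 67.4 and 66.3% in β and 29.8 and 29.6% in δ cells. With the 8 hormone genes taken out of every total, 396 genes (23.7%) were above and 249 (14.9%) below, with 18 of 18 heat shock and 15 of 15 immediate early genes above.

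Hspa1a and Hspa1b, which encode near-identical copies of the inducible chaperone HSP70 and can share reads, were at 3780.1 and 2953 CPM in WT and 4215 and 3053 in GKO. Hspb1, a small heat shock protein, was at 1753 and 1378 CPM, and Dnajb1, a cofactor of HSP70, at 1752 and 1713. Hspb8, a small heat shock protein that works with the cochaperone BAG3, was at 115 and 134 CPM and had the largest margin of any gene with at least 50 CPM but Ppy, at least 3.56 on the log2 scale over each class in each library. Bag3 was at 105 and 109.5 CPM with a margin of 1.74. Serpinh1, a collagen chaperone of the endoplasmic reticulum that heat shock also induces, was at 238 and 247 CPM with a margin of 2.34. Among immediate early and other stimulus-response genes, Atf3 was at 602 and 512 CPM with a margin of 1.65, Klf2 at 355 and 353 with 1.91, Ier2 at 463 and 477 with 1.45, and Rhob at 382 and 400.3 with 1.40.

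**Figure D3:**
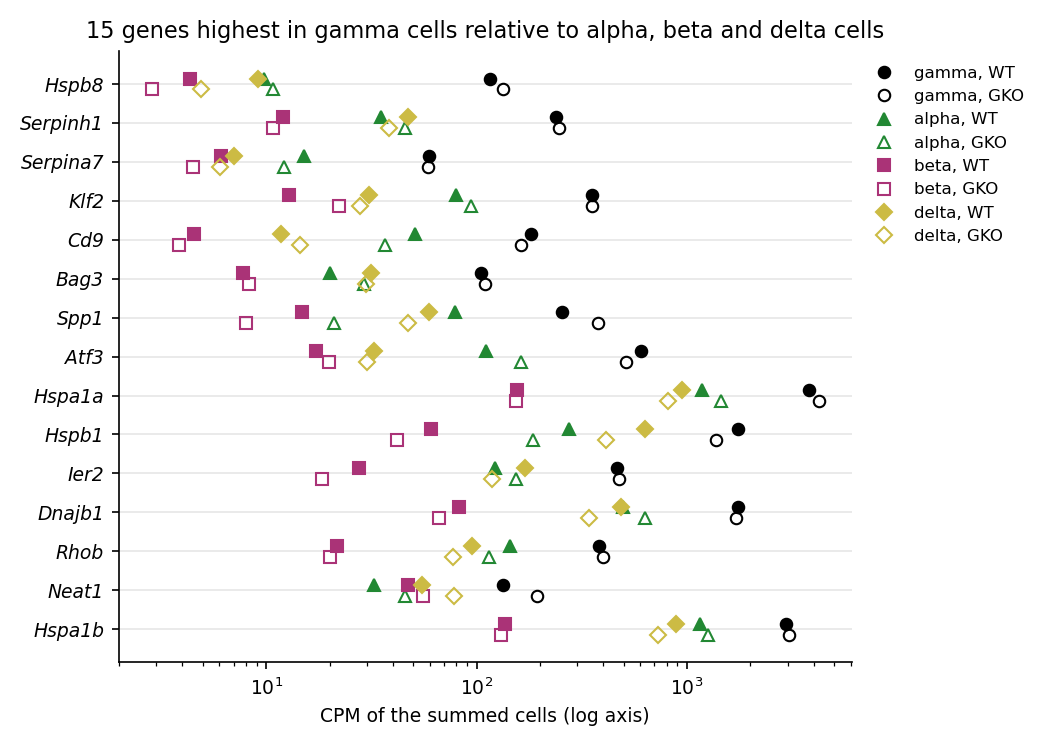
Levels in CPM (log axis) of the genes with the largest margin of γ cells over α, β and δ cells, in each class of the WT and GKO libraries. The γ cell points stand to the right of those of all 3 other classes in both libraries, with Hspb8 showing the widest gap.

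The heat shock element is the DNA motif bound by heat shock factors, and its core is a pair of inverted nGAAn units. For the chaperones with a large γ cell level, the 120 bases before the start of Hspa1a (chr17:34972157-34972276, minus strand) and Hspb1 (chr5:135887799-135887918, plus strand) are shown with matches to GAANNTTC in capitals, printed 5′ to 3′ from RefSeq on GRCm38.
Hspa1a: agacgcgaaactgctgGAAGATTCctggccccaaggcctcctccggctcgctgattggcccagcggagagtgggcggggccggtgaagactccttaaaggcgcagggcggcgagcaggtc
Hspb1: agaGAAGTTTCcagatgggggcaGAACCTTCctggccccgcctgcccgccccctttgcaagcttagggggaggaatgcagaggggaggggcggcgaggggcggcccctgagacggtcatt
The match begins 104 bases before the start of Hspa1a, and the matches begin 117 and 97 bases before that of Hspb1. Of the 20 heat shock genes, 16 had a promoter in the RefSeq table and 6 of these held GAANNTTC within 250 bases before the start (the motif reads the same on both strands). Counted the same way, 2088 of 27025 genes (7.73%) held it, or 2199 of 32851 promoters (6.69%). These matches are letters in a window, not binding sites shown by these data.

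Cell by cell, the heat shock genes together took a median of 2.02% of UMIs in WT γ cells and 1.99% in GKO, against 0.731 and 0.789% in α, 0.201 and 0.197% in β and 0.728 and 0.585% in δ cells. The immediate early genes took 1.00 and 1.02% in γ cells, against 0.387 and 0.449% in α, 0.0427 and 0.0400% in β and 0.358 and 0.236% in δ cells. Non-endocrine cells of the same libraries were higher still: endothelial barcodes had 2.35 and 2.34% heat shock UMIs and macrophage barcodes (low in hormones, at least 10 UMIs of the C1q genes) 6.25 and 5.59%. The γ cells thus lay above the other endocrine classes and below these non-endocrine ones. Within γ cells the heat shock and immediate early shares rose together, with Pearson correlations across cells of 0.63 in WT and 0.70 in GKO (584 and 575 cells). The heat shock share had correlations of 0.02 and -0.04 with the Ppy share, -0.19 and -0.19 with the mitochondrial share and -0.08 and 0.01 with the logarithm of the UMI count. The part that dissociation and sorting had in these levels was not tested.

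**Figure D4:**
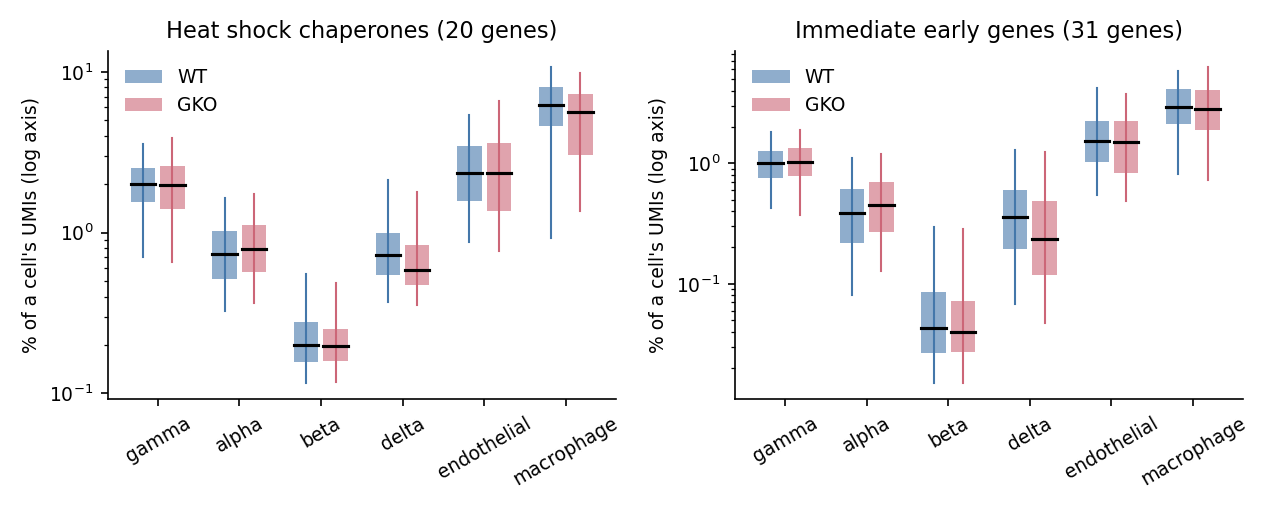
Share of UMIs (y axis, percent) from heat shock chaperone genes and from immediate early genes in γ, α, β, δ, endothelial and macrophage barcodes of WT and GKO, on log y axes, with medians as lines, boxes from the 25th to the 75th and whiskers from the 5th to the 95th percentile over cells. The γ medians of 2.02 and 1.99% for heat shock genes lie above the 3 other endocrine classes and below endothelial and macrophage barcodes. These are shares of all UMIs, hormones included.

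Other genes with a large γ cell margin had no place on these lists. Serpina7, thyroxine-binding globulin, was at 59.6 CPM in WT and 58.5 in GKO, with a margin of 1.98, and was found in 46.7% (42.6 to 50.9) and 48.0% (43.8 to 52.2) of γ cells and in 0.170 and 0.217% of endothelial barcodes. Cd9, another tetraspanin, was at 181 and 162 CPM with a margin of 1.83. Spp1, osteopontin, was at 255 and 378 CPM with a margin of 1.70. The nuclear noncoding RNA Neat1 was at 134 and 193 CPM with a margin of 1.29. On the low side were Ids, a lysosomal sulfatase, at 28.6 and 27.4 CPM and at least 1.42 on the log2 scale under each other class, and Acly, which makes cytosolic acetyl-CoA, at 85.2 and 97.1 CPM. Rnase4, a secreted ribonuclease, was at 18.5 and 27.7 CPM, Usp9x, a deubiquitinase, at 67.2 and 77.4, and Arhgef12, a guanine nucleotide exchange factor, at 26.4 and 25.4. Of the 11 mitochondrially encoded genes past the filter, 8 were below all 3 classes, and 0 were with hormones taken out of the totals.

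The GKO and WT γ cells had much the same transcriptome. Of 1668 genes, 1618 (97.0%) differed by less than 0.5 on the log2 scale and 88.1% lay within 0.25. The size limit of 0.5 was passed upward in GKO by 21 genes (1.26%) and downward by 29 (1.74%). The filter asked for 50 CPM in 1 genotype only, so a gene could pass it through its higher side alone. Among the higher genes, Hes1, H2-Eb1, Jchain, Dcn and Sparc were under 50 CPM in WT. The median log2 ratio of all genes was 0.06, with quartiles of -0.03 and 0.14. Counting intervals excluded 0 for each of the 50 genes, but counting error is only part of the difference between libraries, and without replicates none of these ratios has a test.

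The hormone genes Ppy and Pyy were close in both libraries, each with a log2 ratio of -0.03. The rule set limits on Ppy, Ins1, Ins2, Gcg and Sst in each cell, so their ratios are a description of cells chosen by these genes. Over the 6 other hormone genes past the filter the median was -0.26 and 0 passed the limit. Ins1 (-0.43), Iapp (-0.42) and Ins2 (-0.29) were lower in GKO, each by less than the limit, and endothelial barcodes were lower in GKO too, with 1512 and 1242 CPM of Ins1, 586 and 317 of Iapp and 4037 and 3439 of Ins2. Tspan8 had a log2 ratio of 0.27 and Folr1 -0.18. Beside the median of 0.06 for all genes, the medians were -0.06 for 15 granule protein genes, 0.05 for 10 transcription factors, 0.03 for 8 exocytosis genes, -0.02 for 3 ion channels and 0.08 for 16 genes of cAMP and calcium signaling. Over these lists 1 gene passed the limit, Pde4d, a cAMP phosphodiesterase, at 0.51, and it was under the limit with TMM factors (0.44) and in other alternatives.

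Among genes outside the marker lists of other cell types, Cited2, a coregulator that competes for CBP and p300, was at 163 CPM in WT and 296 in GKO γ cells, a log2 ratio of 0.86 (0.78 to 0.93). In α, β and δ cells of the same libraries it was 0.24, 0.17 and 0.29. Txnip, which is induced by glucose and binds thioredoxin, was at 390 CPM in WT and 650 in GKO, a log2 ratio of 0.74, and it was also higher in the others, with 0.61 in α, 0.48 in β and 0.53 in δ cells. Hes1, a Notch target, was at 32.4 CPM in WT and 55.0 in GKO and passed the filter through GKO only. Its log2 ratio was 0.76, and 0.35 with every cell thinned to 5000 UMIs. Arl4d, a small GTPase, had 0.72, Errfi1, an inhibitor of EGF receptor signaling, 0.66, and Ier5, an immediate early gene, 0.57. Since all classes share these libraries, their ratios are not separate evidence.

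**Figure D5:**
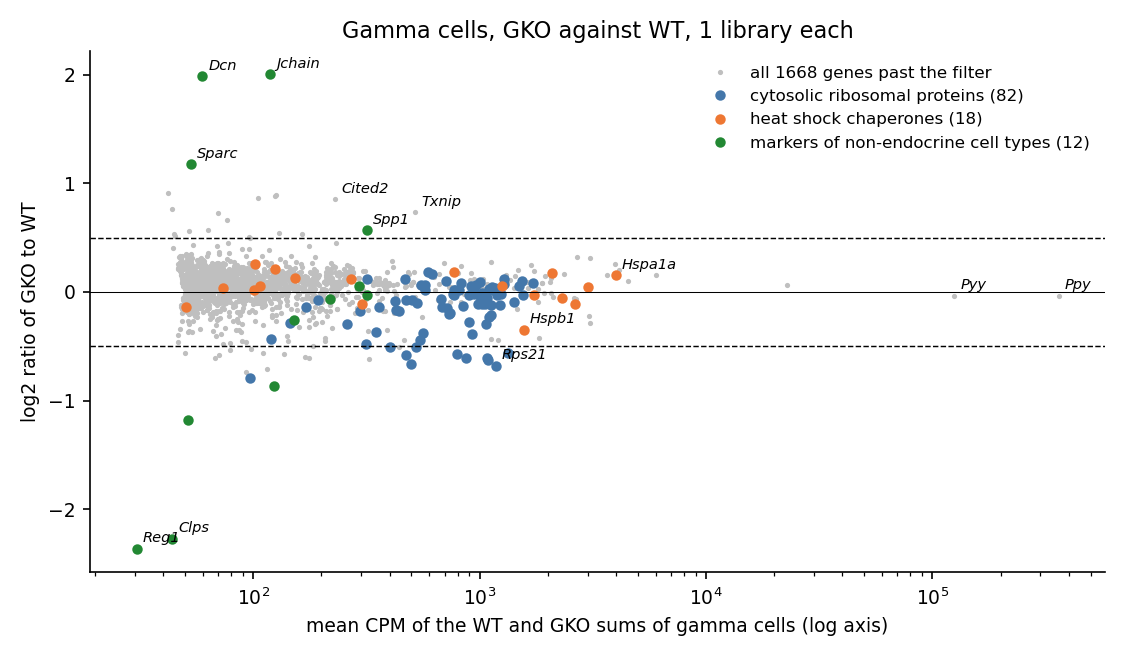
Log2 ratio of GKO to WT in γ cells (y axis) against mean level in CPM (x axis, log scale) for the 1668 genes past the filter, with lines at 0.5 and -0.5 and named genes marked. Most points lie within 0.25 of 0, and 21 lie above and 29 below the lines.

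H2-Eb1 (0.91), Apoe (0.89) and Cd74 (0.88), genes of antigen presentation and lipid transport that macrophages express strongly, had the largest ratios among higher genes outside the marker lists of other cell types. The 5 γ cells with most UMIs held 91.0 and 83.7% of H2-Eb1, 84.6 and 65.8% of Apoe and 90.7 and 82.3% of Cd74 in WT and GKO. The higher genes included Jchain, an immunoglobulin joining chain of plasma cells, at 47.3 CPM in WT and 189.5 in GKO, and Dcn, a matrix proteoglycan of stromal cells, at 23.9 and 94.9. For Jchain, 97.3 and 99.2% of UMIs were in 5 cells.

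Markers of other cell types were counted over the γ cells for this reason. Stellate markers, 12 of 12 detected, summed to 99.5 CPM in WT and 310 in GKO (most abundant Sparc and Dcn), with 10 or more UMIs in 6 and 16 γ cells. Lymphocyte markers, of which 6 and 8 of the 9 measured were detected and Nkg7 was at 0 in both, summed to 56.3 and 211 CPM (most abundant Jchain), with 10 or more UMIs in 2 and 2 cells. Macrophage markers, 10 of 10 detected, summed to 84.7 and 116 CPM (most abundant C1qa), in 4 and 5 cells, and endothelial markers, 10 of 10, to 74.5 and 49.6 CPM (most abundant Plvap and Esam), in 6 and 3. Acinar markers, 12 of 12 measured, went the other way at 615 and 307 CPM, with Ctrb1 at 159 and 87.4, and in endothelial barcodes they stood at 1799 and 444 CPM. All 4 acinar genes past the filter were lower in GKO by more than the limit, and 5 cells held 56.5 and 45.9% of the acinar UMIs. Without carriers of acinar and the other non-ductal lists their log2 ratios were 0.23 for Reg1, -0.21 for Clps, -0.28 for Prss2 and -0.22 for Ctrb1, all inside the limit. With all carriers kept and the other hormones each under 2%, Ctrb1 turned to 0.54 and Prss2 was at -0.23. Ductal markers, 8 and 9 of 9 detected, summed to 1253 and 1353 CPM (most abundant Epcam in WT and Spp1 in GKO), with 10 or more UMIs in 555 and 542 cells, and δ cells had 1740.0 and 1546 CPM of them. Neutrophil markers summed to 0.57 and 0.39 CPM, erythroid markers to 13.4 and 0, and glial markers to 4.01 and 4.42, with Sox10 at 0 in both. Of the endocrine lists, α markers summed to 7723 and 7286 CPM (298961 and 306728 in α cells), β markers to 6848 and 5376 (663682 and 652876 in β cells), and the ε markers Ghrl and Mboat4 to 4.87 and 0.31. The δ markers, which include Pyy, summed to 128998 and 126359 CPM in γ cells and 252366 and 251190.0 in δ cells.

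An alternative added after seeing the data left out 13 WT and 23 GKO γ cells. Each had 10 or more UMIs of an endothelial, stellate, macrophage, lymphocyte, neutrophil, erythroid or glial list. Of 1643 genes past the filter, 11 were then higher and 31 lower. Jchain then stood at 1.77 CPM in WT and 1.89 in GKO, and Gsn, which encodes the actin-severing protein gelsolin and had 0.86 with all cells, at 65.5 and 64.0. H2-Eb1 then stood at 2.73 and 7.54 CPM, Cd74 at 8.27 and 18.3, Apoe at 16.0 and 40.6 and Dcn at 1.18 and 2.54, so their levels were far lower and the GKO level was still the higher. Cited2 (162 and 299 CPM), Txnip (383 and 643) and Hspa1a (3764 and 4195) hardly moved. With the cells of every non-endocrine list left out, ductal and acinar included, which left 10 WT and 10 GKO cells, the log2 ratio of Cited2 was 0.067.

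The genes lower in GKO were short and ribosomal for a good part. Of the 29, 11 encode ribosomal proteins, among them Rps21 (-0.68), Rps28 (-0.66), Rpl37a (-0.62), Rpl37 (-0.61) and Rps29 (-0.61). All 82 ribosomal genes passed the filter, so 11 of 82 passed the limit downward, beside 29 of 1668 genes (1.74%) in all. Of the 82, 26 lay above 0 and 56 below, whereas 67.6% of all genes lay above 0. Their median was -0.08 beside 0.06 for all genes. Gm10076 (-0.62) shares reads with other ribosomal copies and is uncertain. Basp1, a membrane-bound signaling protein, had -0.74, and Dpm3 and Tmem258, small subunits of glycosylation enzymes, -0.71 and -0.61. For Rps21 the ratios in α, β and δ cells of the same libraries were -0.72, -0.60 and -0.61.

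Transcript length moved with these ratios. Length was that of a gene's longest transcript in the GENCODE basic annotation. The median was 611 bases for the lower genes, 1949 for the higher genes and 2110.5 for all. At most 600 bases were found for 13 of the 29 lower genes and 0 of the 21 higher genes. The 63 genes of at most 600 bases had a median log2 ratio of -0.23, against 0.07 for 476 genes of intermediate length and 0.07 for 1127 genes of at least 1500 bases. For 45 short genes that are not ribosomal it was -0.19. The part of length in the ribosomal ratios was not tested.

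Energy and stress genes passed the limit about as seldom as all genes, of which 1.26% passed upward and 1.74% downward. The 11 mitochondrially encoded genes had a median of 0.19, with mt-Cytb at 0.31 and mt-Nd3 at -0.42. Of these, 9 lay above 0, beside 67.6% of all genes. The mitochondrial share of the γ cells was 2.30% in WT and 2.59% in GKO. The 70 nuclear respiratory chain genes had a median of 0.03 and 2 passed the limit downward, Atp5k (-0.52) and Uqcr11 (-0.50), which were inside it with every cell weighted equally (-0.478 and -0.4997). The 7 genes of glucose metabolism had a median of 0.15 and 1 passed, Txnip. The 18 heat shock genes had a median of 0.05 and 0 passed, with Hspb1 at -0.35 and Hspa4l at 0.25. Among 15 immediate early genes, with a median of 0.04, 1 passed, Ier5, and Jun stood at 0.32. Of 22 genes of folding and stress in the endoplasmic reticulum 0 passed, with a median of -0.01. Within these, Hspa5, the chaperone BiP, was at 1390 CPM in WT and 1023 in GKO, a log2 ratio of -0.44, and Ddit3, the stress factor CHOP, at -0.46. The 14 metallothionein and antioxidant genes had a median of 0.06, with Mt2 at -0.48 and Mt1 at -0.35.

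Smaller lists held few measurable genes. The MHC class I list had 2 genes past the filter with a median of 0.07, the interferon response list 3 with 0.05, cell cycle 1, and cholesterol synthesis 1, Por, at -0.60. A UMI of Mki67 or Top2a, markers of proliferation, was found in 17 WT and 17 GKO γ cells, and at least 3 such UMIs in 2 and 3 cells. Of 11 genes that the study named from these libraries, 7 passed the filter, with a median of 0.15 and 0 past the limit. They included mt-Cytb (0.31), Gnas (0.25), mt-Nd2 (0.28), Manf (-0.17) and Resp18 (-0.06). Ptn, a heparin-binding growth factor, had 19 UMIs in 11 WT γ cells and 213 UMIs in 33 GKO γ cells, with 68.4 and 70.9% of them in 5 cells. These were 1.36 and 16.5 CPM. Without the carriers of non-endocrine lists other than acinar and ductal, Ptn had 14 and 47 UMIs, 1.03 and 3.85 CPM. Pde10a, a phosphodiesterase, was at 33.4 and 39.7 CPM, below the filter. These genes were chosen by the study on the same libraries and are not independent of them.

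The spread of counts from cell to cell is given as a description, since the rule set limits on Ppy, Gcg and Sst and the measure grows with the mean. The Fano factor, the variance of UMI counts across γ cells divided by their mean at a common depth of 5000 UMIs per cell, had a median of 1.05 in both libraries over genes with a mean of at least 0.2 UMIs (2034 in WT and 2102 in GKO). It was 209 in WT and 185 in GKO for Iapp, 168 and 162 for Pyy, 129 and 113 for Ppy, 128 and 153 for Sst, and 112 and 103 for Gcg. Jchain had 79.6 and 376, the highest in GKO, Cd74 70.4 and 58.6, and the acinar gene Ctrb1 116 and 81.1. Malat1, a nuclear RNA found in nearly all cells, had 59.2 and 45.7, and Ttr had 24.1 and 21.1.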

How the data were processed

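Islet cells were captured with 10x Genomics 3′ chemistry. The authors deposited UMI counts per gene and barcode from Cell Ranger 5.0.1 with mm10, after its cell filter. The deposited counts hold free RNA and doublets, since the removal steps in the study's methods came later. γ cell counts were summed per library and scaled to 1000000 UMIs (CPM), and the GKO to WT ratio has an exact Poisson interval. R 4.3.3 with edgeR 4.0.16 gave TMM factors, matplotlib 3.10.9 the plots, and scipy 1.17.1, pandas 2.3.3 and numpy 2.4.6 under Python 3.11.15 the rest, and the ratio step was tested on simulated data. The members and gene lists were chosen with earlier results of these data known. Named genes were the islet hormones and Ghsr, Tspan8 and Folr1, the 10 largest rises and falls outside other cell types' markers, the 15 highest and 5 lowest against α, β and δ cells, up to 4 ratios and the most abundant gene per list, the study's genes, and the 10 most variable. Other genes named (receptors, transcription factors and secretory genes below the filter, and genes of the small cell sets) were chosen after their values were seen. Alternatives covered limits on cells, totals, filters and cells with other types' markers. Some genes are not reported here.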

Additional observations from a re-analysis of the deposited data

Results flagged for a closer look

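Spp1, which encodes osteopontin, was the 1 result to stand out between classes. Its log2 ratio of GKO to WT was 0.57 in γ cells (0.50 to 0.63) and -1.90 in α cells (-2.09 to -1.72), so the 2 classes moved in opposite directions, and it was at 255 and 378 CPM in γ cells and 78.8 and 21.1 CPM in α cells. In WT α cells 5 cells held 61.7% of the Spp1 UMIs and 1 cell held 308 of 933, whereas in GKO α cells the highest cell had 9 of 336. In γ cells 5 cells held 9.43% in WT and 16.5% in GKO. The γ ratio was 0.496 with TMM factors and 0.398 without carriers of other cell types' markers, acinar included, both under the limit of 0.5. Spp1 is also on the ductal marker list. With 1 library for each genotype the difference was not tested.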

How the results depend on the processing

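The share of γ cells was 9.08% in WT and 10.8% in GKO with at most 5% mitochondrial UMIs, and 7.54 and 8.30% with the other hormones each under 2%. Against 21 higher and 29 lower of 1668 genes, TMM factors gave 13 and 42 of 1651, moving the median of all genes from 0.06 to -0.01. Totals without hormone genes gave 32 and 53 of 3374, a filter of 20 CPM 49 and 50 of 4142, and a filter of 1 UMI 2152 and 1279 of 15653. The number of genes past the filter changed with the setting, so each count is to be read beside it. Without cells of 10 or more UMIs of any non-endocrine list, 10 WT and 10 GKO cells were left, with 1 higher and 16 lower of 94 genes. There Ier5 turned to -1.29 and Neat1 to -2.32, and the ribosomal median was -0.257. Without endothelial, stellate, macrophage, lymphocyte, neutrophil, erythroid or glial carriers, 11 of 1643 genes were higher and 31 lower and Gsn turned to -0.032. Without acinar carriers too, 12 of 1644 were higher and 27 lower, Gsn was at -0.011 and Reg1 at 0.23. Jchain turned to -0.020 at a Ppy limit of 20%, and Ctrb1 to 0.54 with other hormones under 2%. The ribosomal median was -0.148 with TMM. The median margin of heat shock genes over α, β and δ cells was 0.93, and 1.44 on totals without hormones. The causes were not tested. No receptor passed the filter, so receptor ratios were not read at this depth. No paired analysis was possible because each genotype had 1 library. Leaving out a replicate was not possible for the same reason.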
